A study of Mus musculus with 21 samples.

Results

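The transcription factor genes of the pluripotency network that were followed through mouse gametes and preimplantation embryos were Pou5f1, Sox2, Nanog, Sall4, Klf4, Klf5, Klf17, Esrrb, Nr5a2 and Tfap2c. These 10 genes were taken by name from the 14885 genes and loci with a merged long-read transcript, and 16 of the 22612 merged transcripts were theirs, assigned by overlap of exons on the same strand with GENCODE vM21 genes (mm10). The level of a gene is the sum of the TPM (transcript abundance per length, scaled to the same total in every library) of its merged transcripts in a short-read library. The 2 short-read libraries of a stage covered both gametes (sperm and oocyte), the 1-cell, 2-cell, 4-cell and 8-cell embryo, and the blastocyst, beside 1 long-read pool a stage that mixed the cDNA of 2 batches. Sperm came from the epididymis of males labelled DBA/2J (the protocol writes DBA/2N), and MII oocytes from superovulated C57BL/6J females of 3 to 5 weeks, lysed at 20 h after hCG. Embryos of a ♂DBA/2J and ♀C57BL/6J mating were isolated at 20 h after hCG and then grown in KSOM to the 1-cell (24 to 26 h), 2-cell (46 to 48 h), 4-cell (54 to 58 h), 8-cell (68 to 70 h) and blastocyst stage (94 to 96 h). No gene was altered and no agent was tested, all embryos came from 1 strain combination and were cultured, and every library is RNA of many pooled cells, so in the blastocyst a change of cell numbers and a change of RNA per cell cannot be told apart.

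Pluripotency is the capacity of the early embryonic cells to form all tissues of the body, and a set of DNA-binding proteins that bind each other's genes maintains it in the inner cell mass and in embryonic stem cells. Pou5f1 (Oct4, a POU factor) and Sox2 (an HMG-box factor) bind DNA side by side, Nanog is a homeobox protein, and Sall4 is a zinc finger protein that acts with them. Klf4, Klf5 and Klf17 are zinc finger factors of the Krüppel-like family that bind GC-rich and GT-rich boxes, Esrrb and Nr5a2 are orphan nuclear receptors, and Tfap2c is an AP-2 factor known also from the trophectoderm. In the mouse the embryo genome becomes broadly active at the 2-cell stage, after maternal mRNA of the oocyte has begun to be degraded.

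The sequences shown first are those of the 2 genes whose merged long-read transcripts differed in their 5′ exons, Tfap2c and Nanog. Promoters follow where they held the merged long-read start of a gene called as changed from oocyte to blastocyst. Tfap2c (chr2:172549593-172558622, + strand, 6 annotated transcripts) had 2 merged transcripts of 7 exons with different first exons. The upstream one began at 172549593, the annotated start of Tfap2c-201, and the downstream one at 172550969, 22 bases before the nearest annotated start of the same first exon, and each had an annotated intron chain. The first exons carry different start codons, so the coding sequence is 1347 bases long in Tfap2c-201 and 1539 bases in Tfap2c-202. The intron chain of the downstream transcript is also that of Tfap2c-206. Of the downstream long reads only that of 4-cell held the Tfap2c-202 start codon, which begins at 172550982. Those of 2-cell and 8-cell began after it, at 172551042 and 172550991. The coding part of each first exon is given from the reference genome, with the start codon in capitals. It lies at chr2:172549835-172549882 (48 bases, 16 codons) for the upstream start and at chr2:172550982-172551221 (240 bases, 80 codons) for the downstream start.

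Tfap2c-201, upstream start: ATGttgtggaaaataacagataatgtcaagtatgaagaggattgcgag

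Tfap2c-202, downstream start: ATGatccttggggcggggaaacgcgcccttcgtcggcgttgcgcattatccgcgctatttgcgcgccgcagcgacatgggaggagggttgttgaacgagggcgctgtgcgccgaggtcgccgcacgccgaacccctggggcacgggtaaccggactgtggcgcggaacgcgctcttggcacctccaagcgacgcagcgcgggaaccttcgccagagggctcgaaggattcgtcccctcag

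Nanog (chr6:122707489-122714633, + strand) had 2 merged transcripts of 5 exons that began at the same base, 122707591, and differed in the end of the first intron. In the first the intron spanned 122707609 to 122707716 (108 bases), which no annotated transcript has, and in the second 122707609 to 122707811 (203 bases), as in Nanog-202. The annotated start codon of Nanog-201 begins at 122707783, inside the longer intron and after the end of the shorter one. The transcript with the shorter intron held all 915 coding bases of Nanog-201, and that with the longer intron held 886. The windows of 30 bases that follow show the shared donor (122707594-122707623, first 2 intron bases in capitals), both acceptors (122707702-122707731 and 122707797-122707826, last 2 intron bases in capitals) and the start codon (122707783-122707812, in capitals). They are read from GRCm38, 5′ to 3′ on the + strand.

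Nanog, shared donor: agataggctgatttgGTtggtgtcttgctc

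Nanog, acceptor of the 108-base intron: gatctttccttctAGacactgagttttttg

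Nanog, acceptor of the 203-base intron: tcctggtccccacAGtttgcctagttctga

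Nanog, start codon: ATGagtgtgggtcttcctggtccccacagt

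**Figure D1:**
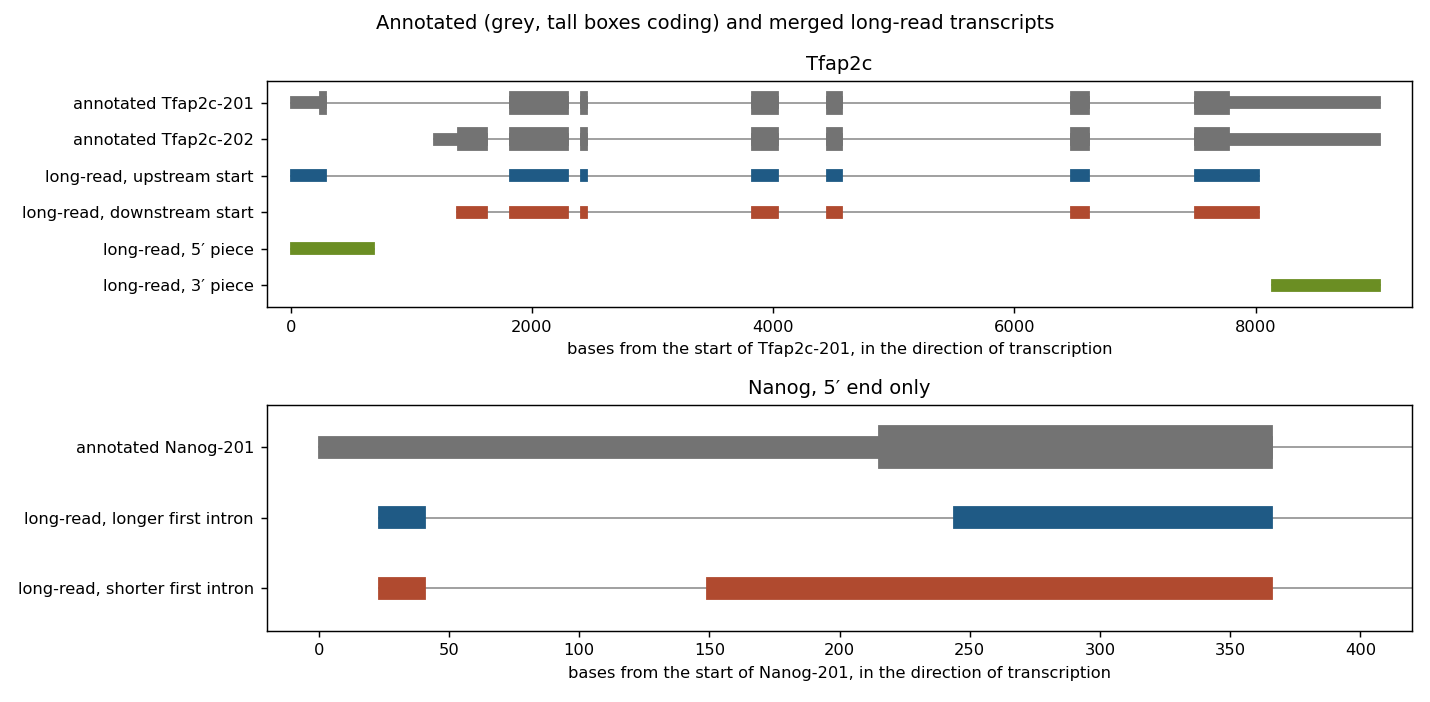
Exons of annotated (grey, coding parts as tall boxes) and merged long-read transcripts of Tfap2c and of the 5′ end of Nanog, with bases from the annotated start on the x axis. The Tfap2c transcripts part in their first exon, and the Nanog transcripts share the first exon and differ in the end of the first intron (108 or 203 bases).

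RefSeq promoters (GRCm38.p6, 250 bases before to 50 after a start) were held for 7 of the 10 genes, 11 in all, and none for Klf5, Tfap2c and Sall4. Within them 7 motifs were searched on both strands, each by its letters. The octamer core ATGCAAA was present in 4.63% of all 32851 promoters and in the Sox2 promoter and both Nanog promoters. The Sox core CATTGT was present in 12.57% of all promoters and in 5 of the 11, of Nanog (both), Klf17, Esrrb and Pou5f1. In Pou5f1 it stood in the inner window, chr17:35508557-35508856. The window with the merged long-read start, chr17:35505782-35506081, did not hold it. The Nanog windows overlap and hold the same octamer core and Sox core sites, so each site was counted in both. The Klf GT box GGGTGTGG (3.56% of all promoters) was found in the Klf17 promoter only, and the Klf GC box GGGCGGGG (17.59%) in those of Klf4, Pou5f1 and Sox2. The AP-2 palindrome GCCNNNGGC (16.59%) stood in 3 of the 11, and the letters TATAAA (13.62%) in 1, the outer promoter of Nr5a2. The nuclear receptor element AAGGTCA (4.72%) was in none of the 11 windows. A match is a run of letters and not a bound site.

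The Nanog promoter with the start nearest to the long reads, chr6:122707315-122707614 on the + strand, holds the octamer core and the Sox core on the minus strand at 151 and 143 bases before the start, and the AP-2 palindrome after it (capitals). The Klf17 promoter, chr4:117765617-117765916 on the minus strand, holds the GT box at 33 bases before the start and the Sox core after it. The inner Nr5a2 promoter, chr1:136953581-136953880 on the minus strand, holds none of the 7 motifs. Each of these 3 windows contained the start of the merged long-read transcript of its gene.

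Nanog promoter: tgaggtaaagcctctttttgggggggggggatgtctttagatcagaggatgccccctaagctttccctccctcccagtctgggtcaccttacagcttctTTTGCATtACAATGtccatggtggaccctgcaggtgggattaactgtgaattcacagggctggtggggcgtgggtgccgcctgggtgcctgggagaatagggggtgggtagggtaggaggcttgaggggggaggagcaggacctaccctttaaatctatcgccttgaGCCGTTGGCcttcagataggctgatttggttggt

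Klf17 promoter: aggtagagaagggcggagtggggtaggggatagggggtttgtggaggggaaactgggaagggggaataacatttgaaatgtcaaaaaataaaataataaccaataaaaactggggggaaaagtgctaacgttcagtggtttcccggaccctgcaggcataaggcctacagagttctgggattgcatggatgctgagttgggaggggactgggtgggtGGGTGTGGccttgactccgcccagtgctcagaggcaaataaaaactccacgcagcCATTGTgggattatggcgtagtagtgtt

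Nr5a2 inner promoter: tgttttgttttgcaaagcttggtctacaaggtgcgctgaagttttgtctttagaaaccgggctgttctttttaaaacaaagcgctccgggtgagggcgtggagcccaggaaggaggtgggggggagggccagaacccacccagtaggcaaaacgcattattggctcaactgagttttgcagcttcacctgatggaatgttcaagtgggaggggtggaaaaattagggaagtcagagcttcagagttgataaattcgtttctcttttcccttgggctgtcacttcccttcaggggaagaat

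The libraries differed in how well their replicates agreed, which bears on every test that follows. On the log2 scale the SD of the median gene over its 2 libraries was 1.03 at 2-cell and 0.20 at 4-cell, with the other stages between them. In 2-cell replicates 1 and 2, 17 genes of a 2-cell list summed to 211 and 1234 TPM, and 14 oocyte markers to 259.9 and 2338 TPM. In the same libraries 10 somatic and blood cell markers summed to 27.8 and 417 TPM. Of this Hba-a1 alone had 18.6 and 368 TPM, and it had 95.5 and 145 TPM in 4-cell. Both sperm libraries held sperm markers (12 of 12, 18009 and 22156 TPM summed at the least and the most) and also the 10 somatic and blood markers, none of them under 1 TPM, at 10281 and 6638 TPM. Of 12 cumulus and granulosa markers only Amhr2 had a merged transcript, so the others were not measured. Amhr2 was at 0.206 and 0 TPM in the oocyte libraries and was called higher at 2-cell than at 1-cell. The presence of cumulus cells was thus not tested. TPM keeps no read counts. The paper lists the total reads of each short-read library, by its numbering more for 2-cell replicate 2 than for replicate 1. These totals were not used, so the counting error behind a value was not estimated. The labels do not say that the 2 libraries of a stage came from separate animals, so the p-values measure the spread between these libraries.

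Long-read transcripts of the 10 genes were recovered unevenly. The stage annotations held 66 of their transcripts: 1 in the sperm pool, 7 in the oocyte pool, 4 at 1-cell and 9 at 2-cell. The 4-cell pool held 12, the 8-cell pool 21 and the blastocyst pool 12. Of the 16 merged transcripts, 8 matched an annotated intron chain exactly, 5 were contained in an annotated transcript, 1 shared an intron and 2 overlapped an exon only, and 43 of their 44 introns were annotated. The intron that was not annotated is the shorter one of Nanog. For 5 genes, Pou5f1, Nanog, Klf5, Klf17 and Tfap2c, 1 merged transcript covered the whole longest annotated coding sequence. Nr5a2 was covered to 96.2%, Klf4 to 50.8%, Sox2 to 46.0%, Sall4 to 23.5% and Esrrb to 20.0%, so their TPM are levels of a part of the mRNA. Where a gene has several pieces, as Klf4, Nr5a2 and Tfap2c do, the sum can count 1 mRNA more than once.

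Pou5f1 was present from the oocyte on and had its highest level in the blastocyst. It was measured at 0.647 and 0.996 TPM in sperm, 37.1 and 103.6 in oocyte, 107 and 46.8 in 1-cell, 17.3 and 33.2 in 2-cell, 32.1 and 35.0 in 4-cell, 69.6 and 179.7 in 8-cell, and 206 and 199.7 in blastocyst. The blastocyst libraries lay above all others, and those of oocyte and 1-cell overlapped. The gene (chr17:35506018-35510772, + strand) had 1 merged transcript of 5 exons with an annotated intron chain, and long reads of it were found in 6 of the 7 pools. No transition of Pou5f1 was called by limma. From 4-cell to 8-cell the log2 change was 1.71 (SE 0.78, adjusted p = 0.309, limma), and with the spread weighted by stage the adjusted p was 0.00797 (limma). Between oocyte and blastocyst it was 1.69 (adjusted p = 0.0937, limma).

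Sox2 was low at every stage before the blastocyst. Its values were 0.178 and 6.24 TPM in sperm, 0.169 and 1.02 in oocyte, 2.45 and 0.960 in 1-cell, 7.61 and 7.20 in 2-cell, 0.236 and 0.357 in 4-cell, 4.05 and 4.54 in 8-cell, and 13.2 and 40.4 in blastocyst. The 2-cell libraries lay above those of oocyte, 1-cell, 4-cell and 8-cell without overlap. Sox2 rose from oocyte to blastocyst by 3.98 on the log2 scale (SE 0.67, adjusted p = 0.000438, limma), with both blastocyst libraries above both oocyte libraries. The difference from 2-cell to 4-cell was -2.70 (SE 0.67) and missed the threshold (adjusted p = 0.0509, limma, and 0.231 with the spread weighted by stage). The only long-read transcript, a piece of 545 bases inside the single exon (chr3:34650933-34651477), came from the blastocyst pool.

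Nanog appeared later than Pou5f1. It was at 0.289 and 0.896 TPM in sperm, 0.891 and 0.0594 in oocyte, 0.715 and 0.196 in 1-cell, 0.542 and 2.08 in 2-cell, 9.22 and 11.2 in 4-cell, 24.5 and 33.2 in 8-cell, and 73.7 and 30.9 in blastocyst. Every library from 4-cell on lay above every earlier library, and 8-cell and blastocyst overlapped. Nanog rose by 5.11 on the log2 scale from oocyte to blastocyst (SE 0.70, adjusted p = 0.000107, limma). No single step was called, the lowest adjusted p being 0.0801 from 2-cell to 4-cell (log2 change 2.36, SE 0.70, limma). Most of the merged TPM went to the transcript with the shorter first intron. That transcript had 9.22 and 5.37 TPM in 4-cell, 21.8 and 30.7 in 8-cell, and 64.8 and 27.5 in blastocyst. The transcript with the longer intron had 0 and 5.87 TPM, 2.64 and 2.48 TPM, and 8.82 and 3.41 TPM in the same libraries. Thus among the merged transcripts the longer intron was the higher of the pair in 4-cell replicate 2, and the shorter one in the other 5 libraries. The long-read pools of 8-cell and blastocyst also held a 4-exon form with the annotated chain of Nanog-201, which keeps this first intron. It was not in the merged set, so the merged TPM give it no value of its own. Over own-stage transcripts it had 10.1 and 13.1 TPM in 8-cell, beside 10.4 and 13.4 for a form with the shorter intron. In blastocyst it had 22.3 and 13.7 TPM, the shorter intron 21.2 and 6.17, and the longer intron 15.6 and 9.27.

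Sall4 was abundant in oocyte and embryo and varied widely between replicates. It was at 0.0444 and 0.795 TPM in sperm, 259 and 79.7 in oocyte, 78.5 and 24.0 in 1-cell, 13.9 and 132 in 2-cell, 128 and 189 in 4-cell, 212 and 173.7 in 8-cell, and 180.2 and 34.7 in blastocyst. From oocyte to blastocyst every neighbouring pair of stages in the order of their means overlapped. No transition was called. The lowest adjusted p of a transition was 0.337 (2-cell to 4-cell, log2 change 1.81, SE 1.10, limma). Its merged transcript has 3 exons at the 3′ end (chr2:168748333-168754470, minus strand).

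**Figure D2:**
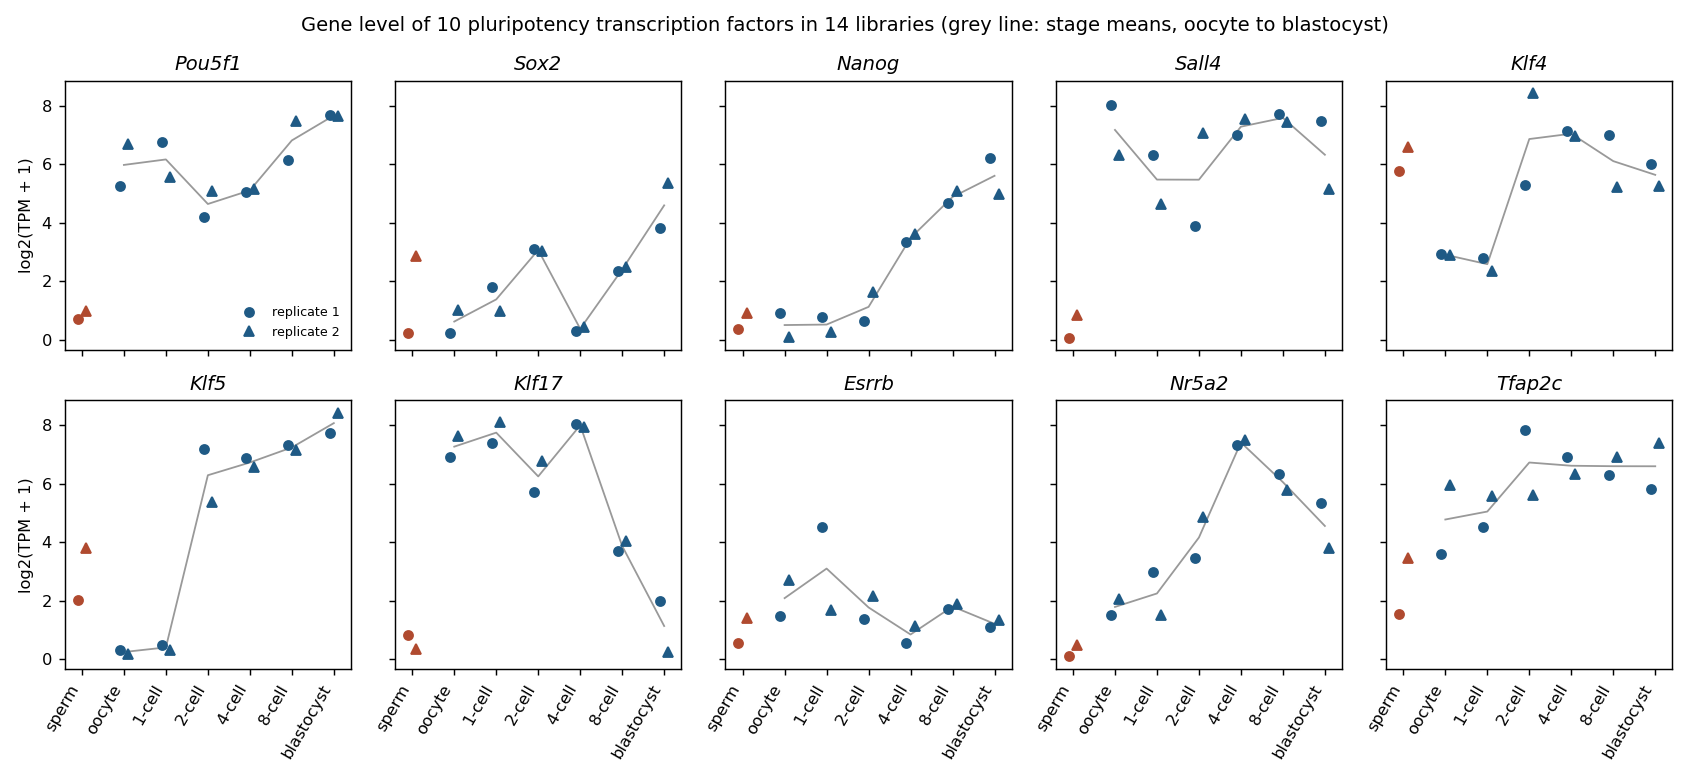
Level of each of the 10 genes as log2(TPM + 1) on the y axis in each of the 14 libraries (circles replicate 1, triangles replicate 2, sperm in red), with a grey line through the stage means. Klf5 stands near 0 in oocyte and 1-cell and high from 2-cell on, Klf17 falls from 4-cell to 8-cell, and Nanog is above 9 TPM from 4-cell on.

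Klf5 had the largest change of the 10 genes in the comparisons of oocyte and embryo. It was at 3.01 and 12.9 TPM in sperm, 0.234 and 0.130 in oocyte, 0.399 and 0.242 in 1-cell, 145 and 41.0 in 2-cell, 116 and 94.6 in 4-cell, 159 and 142 in 8-cell, and 212 and 340.1 in blastocyst. Both 2-cell libraries lay far above every oocyte and 1-cell library. The rise from 1-cell to 2-cell was 5.89 on the log2 scale (SE 0.72, adjusted p = 0.000271, limma, and 0.00478 with the spread weighted by stage). It stayed called with each of the 4 libraries left out in turn (log2 change 4.99 to 6.79, adjusted p at most 0.00664, limma), but not when fitted on these 4 libraries alone (adjusted p = 0.0761, limma). No gene at all was called from 1-cell to 2-cell in that fit on 4 libraries. The rise of Klf5 from oocyte to blastocyst was 7.83 (SE 0.72, adjusted p = 1.19e-05, limma). The merged transcript (chr14:99298685-99315036, + strand) has 4 exons with an annotated chain and holds the whole coding sequence. Long reads of 4 exons came from the 4-cell, 8-cell and blastocyst pools, and the 2-cell pool held a 3-exon piece with 72.9% of the coding bases.

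Klf4 also rose from 1-cell to 2-cell. It was at 54.1 and 95.0 TPM in sperm, 6.62 and 6.40 in oocyte, 5.99 and 4.15 in 1-cell, 38.4 and 345 in 2-cell, 139.6 and 124 in 4-cell, 127 and 36.4 in 8-cell, and 63.6 and 37.6 in blastocyst. The oocyte and 1-cell libraries were the lowest, and the values from 2-cell to 8-cell overlapped. The rise was 4.28 on the log2 scale (SE 0.94, adjusted p = 0.00486, limma, and 0.0397 with the spread weighted by stage). Without 2-cell replicate 2, the library with the higher value, it was 2.72, with an adjusted p of 0.0286 (limma). Fitted on the 1-cell and 2-cell libraries alone, it was not called (adjusted p = 0.0975, limma), and neither was any other gene. From oocyte to blastocyst Klf4 rose by 2.73 (SE 0.94, adjusted p = 0.0298, limma), a call that was lost with any of the 4 libraries left out (adjusted p 0.0606 to 0.158, limma), after quantile normalization (0.127) and with the spread weighted by stage (0.0512).

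The sum for Klf4 (chr4:55527143-55532466, minus strand) adds a piece of 3 exons and 936 bases to a single-exon piece of 460 bases at the 3′ end. The 3-exon piece was the steadier of the pair in 8-cell, at 36.3 and 31.7 TPM, and in 4-cell, at 30.3 and 33.2 TPM. The 3′ piece had 90.6 and 4.72 TPM in 8-cell, 10.3 and 253 in 2-cell, and 44.2 and 3.63 in blastocyst. With multi-exon transcripts alone, an alternative chosen after seeing the data, the rise to 2-cell was 3.34 (adjusted p = 0.00444, limma).

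Klf17 was high from oocyte to 4-cell and low in the blastocyst. It was at 0.749 and 0.256 TPM in sperm, 119.6 and 196.5 in oocyte, 168 and 274 in 1-cell, 51.2 and 110.1 in 2-cell, 263 and 247 in 4-cell, 12.0 and 15.4 in 8-cell, and 3.01 and 0.195 in blastocyst. The 2-cell libraries were the lowest up to 4-cell, and both 8-cell libraries lay below all earlier embryo libraries. From 4-cell to 8-cell Klf17 fell by 4.13 on the log2 scale (SE 0.76, adjusted p = 0.00687, limma, and 1.8e-06 with the spread weighted by stage). The fall was 3.97 to 4.30 with each library of the 2 stages left out, and the adjusted p was then 0.0776 to 0.0982 (limma), above the threshold in each case. Over the whole course from oocyte to blastocyst it fell by 6.14 (SE 0.76, adjusted p = 5.48e-05, limma). Its merged transcript has 3 exons with the annotated chain and runs 1173 bases past the annotated end. That end comes from a single-exon piece of the 8-cell pool (chr4:117756663-117757861). No 3-exon long read of a stage ran more than 2 bases past the annotated end. The oocyte, 1-cell, 2-cell and 4-cell pools each held a 3-exon long read with all 1023 coding bases, and the 8-cell pool held only shorter pieces.

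Nr5a2, which is known to take part in the activation of the mouse embryo genome, peaked at 4-cell. It was at 0.0876 and 0.411 TPM in sperm, 1.84 and 3.18 in oocyte, 6.81 and 1.88 in 1-cell, 9.87 and 28.4 in 2-cell, 161 and 178 in 4-cell, 78.7 and 54.5 in 8-cell, and 39.0 and 12.8 in blastocyst. The 4-cell libraries lay above all others, and 8-cell lay above 2-cell and blastocyst without overlap. The rise from 2-cell to 4-cell was 3.25 on the log2 scale (SE 0.80) and passed narrowly (adjusted p = 0.0495, limma). It did not pass with a pseudocount of 0.1 (adjusted p = 0.0940), without the filter on low values (0.0589), with the spread weighted by stage (0.228), with a replicate block (0.0819), on the 4 libraries alone (0.245), or without 2-cell replicate 1 (0.0749), 4-cell replicate 1 (0.322) or 4-cell replicate 2 (0.329, all limma). Nr5a2 rose by 2.77 from oocyte to blastocyst (SE 0.80, adjusted p = 0.0121, limma), but not without oocyte replicate 1 (0.0631), without blastocyst replicate 1 (0.114) or on the 4 libraries alone (0.0651, all limma).

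The 9-exon Nr5a2 transcript (chr1:136844099-136953695, minus strand) has an annotated chain and begins 65 bases before the nearest annotated start, inside the inner promoter shown earlier. It had 9.49 and 24.3 TPM in 2-cell, 83.5 and 88.0 in 4-cell, and 45.8 and 40.8 in 8-cell. A single-exon 3′ piece of 1166 bases had 0.375 and 4.10 TPM in 2-cell, 77.8 and 89.8 in 4-cell, and 32.9 and 13.7 in 8-cell. Both pieces were thus highest at 4-cell, at nearly the same level. With multi-exon transcripts alone the rise from 2-cell to 4-cell was 2.41 (adjusted p = 0.0903, limma).

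Esrrb stayed low. Its values were 0.464 and 1.63 TPM in sperm, 1.79 and 5.45 in oocyte, 22.1 and 2.17 in 1-cell, 1.59 and 3.46 in 2-cell, 0.449 and 1.21 in 4-cell, 2.26 and 2.71 in 8-cell, and 1.12 and 1.52 in blastocyst. The library 1-cell replicate 1 held the highest value, and all others were at 5.45 TPM or below. No transition was called, and without that library the change from 1-cell to 2-cell turned from -1.33 to 0.10. The merged transcript is a 4-exon piece of 693 bases (chr12:86504392-86509949, + strand) with an annotated chain, found only in the 1-cell pool. It covers 273 of the 1362 coding bases of the longest form, so transcripts that lack it were not measured.

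**Figure D3:**
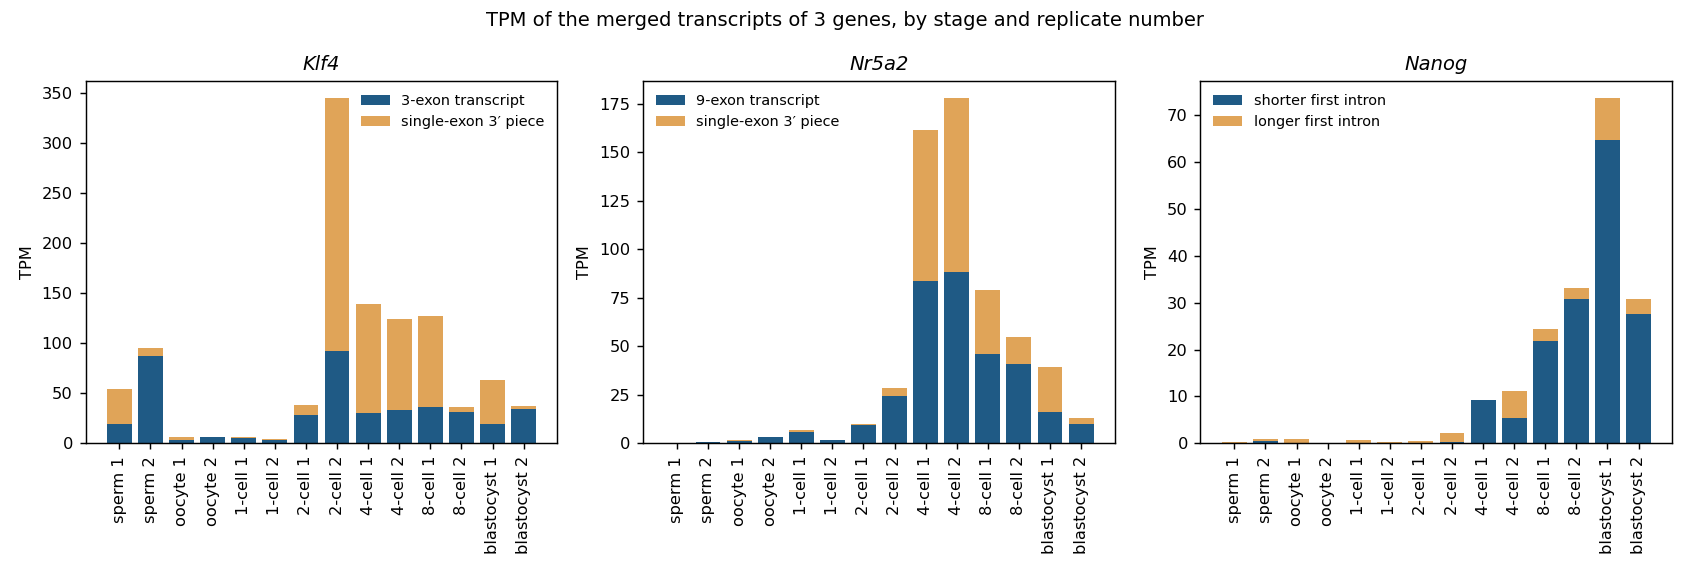
TPM of the merged transcripts of Klf4, Nr5a2 and Nanog on the y axis, stacked by transcript, for the 14 libraries by stage and replicate number. The single-exon 3′ piece makes up most of the 345 TPM of Klf4 in 2-cell replicate 2, and both Nr5a2 pieces peak at 4-cell. Among the merged Nanog transcripts, which lack the annotated 4-exon form, the shorter first intron leads in the later libraries.

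Tfap2c, present in every oocyte and embryo library, had the most even log2 stage means of the 10 genes by the index tau given below. It was at 1.94 and 9.98 TPM in sperm, 11.1 and 60.8 in oocyte, 21.8 and 46.9 in 1-cell, 229.8 and 47.6 in 2-cell, 119 and 79.2 in 4-cell, 77.7 and 119 in 8-cell, and 55.0 and 167 in blastocyst. No transition was called, and the values from 2-cell to blastocyst overlapped. The stage specificity index tau, which is 0 for equal levels in all 6 stages from oocyte on and 1 for a single stage, was 0.119 for Tfap2c. Only 2.12% of the genes tested had a lower tau, and the median gene had 0.451. Sox2 had the highest tau of the 10 (0.659, above 82.8% of genes), then Nanog (0.625), Esrrb (0.503), Nr5a2 (0.493), Klf5 (0.482), Klf17 (0.343), Klf4 (0.316), Pou5f1 (0.251) and Sall4 (0.163).

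The share of the upstream Tfap2c start differed between stages, and no change of a Tfap2c ratio passed the test. Of the TPM of the 7-exon transcripts, the upstream start took 14.7 and 20.7% in oocyte, 15.2 and 33.1% in 1-cell, 15.9 and 74.9% in 2-cell, 18.9 and 20.5% in 4-cell, 51.9 and 59.6% in 8-cell, and 78.4 and 81.7% in blastocyst. Except for 2-cell replicate 2, all libraries up to 4-cell lay below those of 8-cell, and the blastocyst libraries lay above all others. In TPM the downstream start went from 49.9 and 34.2 in 4-cell to 17.9 and 30.9 in 8-cell and 4.99 and 15.9 in blastocyst. The upstream start went from 11.6 and 8.82 to 19.3 and 45.6 and 18.1 and 70.6 TPM. The upstream start codon is thus carried by the minority of these transcripts at 4-cell and by the majority in the blastocyst, as the salmon estimates give it. The test of the upstream transcript against the rest of the gene from 4-cell to 8-cell gave a log2 ratio change of 1.87 (SE 0.61) that did not pass (adjusted p = 0.221, limma). Long reads of 7 exons were found from the upstream start in the 2-cell and 8-cell pools, from the downstream start in these pools and that of 4-cell, and in the blastocyst pool from neither.

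**Figure D4:**
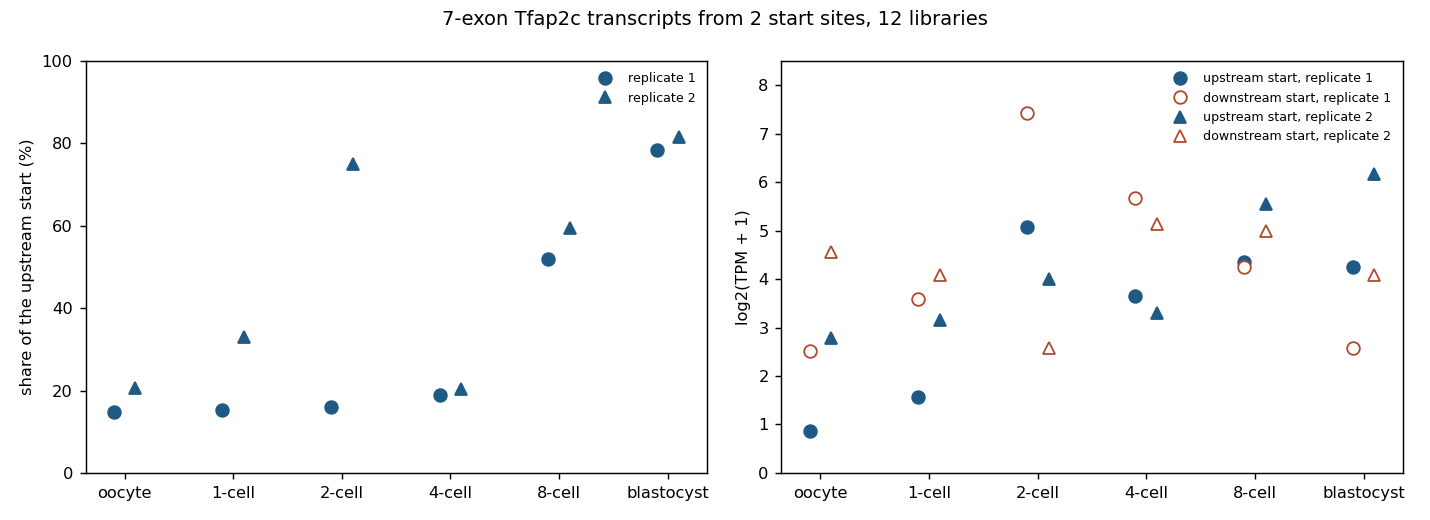
Share of the upstream start in the summed TPM of the 7-exon Tfap2c transcripts, in percent (left), and log2(TPM + 1) of each start (right), in the 12 libraries from oocyte to blastocyst. The share is 18.9 and 20.5% at 4-cell and 78.4 and 81.7% at blastocyst, and the 2-cell replicates stand at 15.9 and 74.9%.

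Isoform ratios could be tested for 10 transcripts of 4 genes (Nanog, Klf4, Nr5a2 and Tfap2c), as the TPM of a transcript against the rest of its gene. None was called by limma in any of the 5 transitions, and at an unadjusted p under 0.05 there were 0, 1, 5, 1 and 0. Over all 10820 transcripts tested, 0.148, 15.5, 0.185, 0.397 and 0.24% were called in the same order, and 8.47, 30.9, 17.4, 12.6 and 10.5% had an unadjusted p under 0.05. The 5 from 2-cell to 4-cell are both Nr5a2 pieces, both Nanog transcripts and the 3′ piece of Tfap2c (896 bases). The ratios of a gene's transcripts are tied to each other, and for genes with 2 transcripts the second is the first with its sign turned, so the 5 stand for 3 genes.

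Read together by transition, few of the 10 genes were called at any single step. All 10 passed the filter on low values. From oocyte to 1-cell 0 of 10 were called by limma, and 0 also at an unadjusted p under 0.05 (9.71% of all genes), with 2.9% of the 13465 genes tested called (2.8% as a rise, 0.104% as a fall). From 1-cell to 2-cell 2 rose, Klf5 and Klf4, where 25.3% of all genes rose, 4.57% fell and 29.9% were called in either direction. From 2-cell to 4-cell 1 rose, Nr5a2 (of all genes 1.06% rose and 1.58% fell, 2.64% in all). From 4-cell to 8-cell 1 fell, Klf17 (of all genes 2.92% fell and 0.832% rose, 3.75% in all). From 8-cell to blastocyst 0 were called by limma, and 1.99% of all genes were (0.921% as a rise, 1.07% as a fall). At an unadjusted p under 0.05 there were 2 of the 10 (Sox2 and Klf17, adjusted p = 0.125 and 0.0908, limma), near the 13.1% of all genes. From oocyte to blastocyst 5 rose, Klf5, Nanog, Sox2, Nr5a2 and Klf4, against 29.8% of all genes, and 1 fell, Klf17, against 16.6% (46.4% called in all).

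With the spread weighted by stage more of the 10 genes were called from 4-cell to 8-cell. Then 5 of the 10 were called by limma: Pou5f1 (log2 change 1.71), Sox2 (2.03) and Nanog (1.40) higher in 8-cell, and Klf17 (-4.13) and Nr5a2 (-1.36) lower. Over all genes that fit called 4602 in place of 505. The common spread takes in the wide 2-cell replicates, and the 4-cell and 8-cell replicates were the closest of the series. The higher calls were 3 of 10 beside 8.42% of all genes, and the lower calls 2 of 10 beside 25.8%. The libraries of both stages did not overlap for 7 of the 10 genes, nor for 67.2% of all genes.

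The median gene itself moved between stages, by 0.84 on the log2 scale at 2-cell against 1-cell, -0.39 at 8-cell against 4-cell, -0.24 at blastocyst against 8-cell, 0.75 at blastocyst against oocyte, 0.91 in sperm against oocyte, and 0.20 at 1-cell against oocyte. Of the genes called from 1-cell to 2-cell 84.7% rose, and after quantile normalization 45.6%. The same share was 22.2% and then 48.0% at the step to 8-cell, 40.2% and 54.0% at the step to 4-cell, 46.3% and 56.7% at the step to blastocyst, and 64.2% and 49.4% over the whole course. In sperm against oocyte it was 69.6% and 49.9%. Relative to the median gene, Klf5 and Klf4 were 5.05 and 3.44 higher at 2-cell than at 1-cell, and Pou5f1, Klf17 and Esrrb were -2.36, -2.34 and -2.17. After quantile normalization these 3 were called as lower (adjusted p = 0.0225, 0.0395 and 0.0172, limma, with 16.6% of all genes called lower), beside Klf5 and Klf4 as higher (13.9% of all genes).

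**Figure D5:**
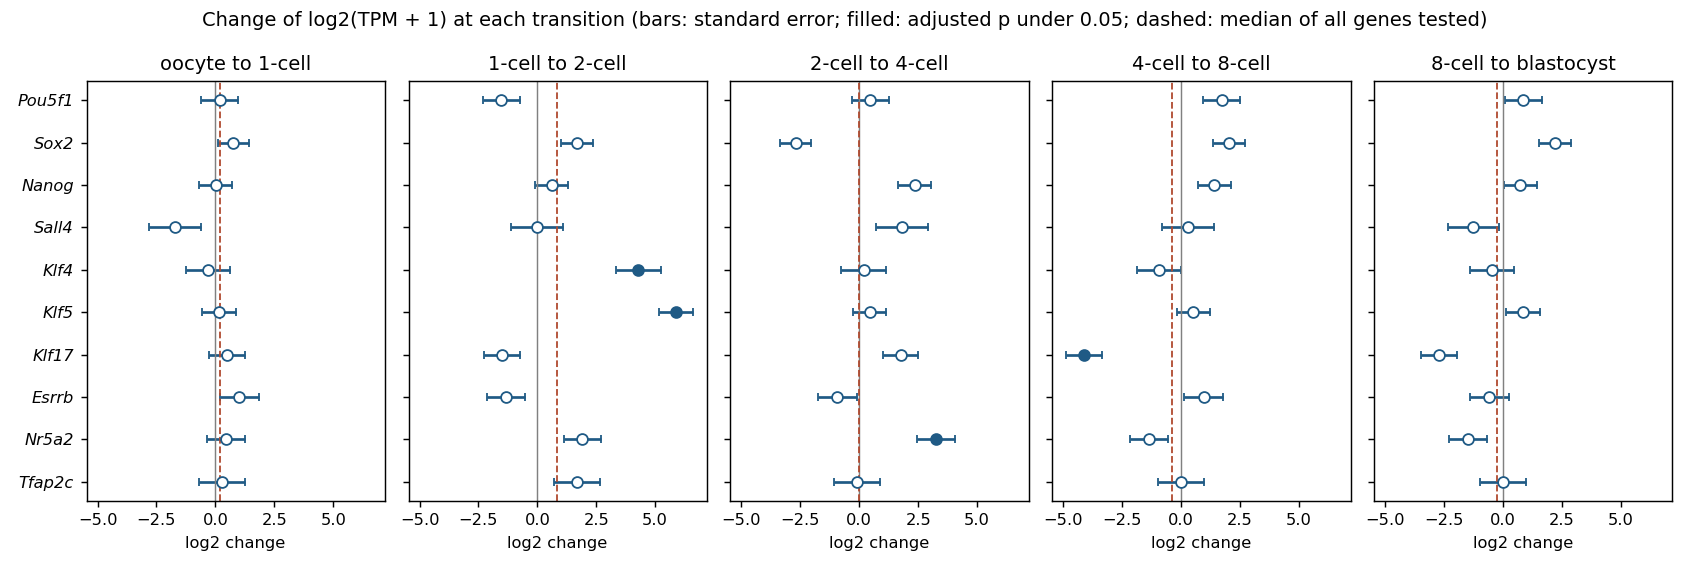
Change of log2(TPM + 1) on the x axis for each of the 10 genes at the 5 transitions (points, with standard errors, filled where the adjusted p is under 0.05), and the median change of all genes tested (dashed line). Filled points are Klf4 and Klf5 from 1-cell to 2-cell, Nr5a2 from 2-cell to 4-cell and Klf17 from 4-cell to 8-cell.

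Most of the 10 genes were low in sperm, and Klf4 was not. Against the oocyte, Pou5f1 was lower by a log2 change of -5.12 (SE 0.79, adjusted p = 0.000109, limma), Klf17 by -6.70 (SE 0.77, adjusted p = 1.01e-05, limma) and Sall4 by -6.73 (SE 1.07, adjusted p = 0.000145, limma). These 3 of 10 compare with 15.5% of all 14397 genes tested. Klf4 (3.28, SE 0.94, adjusted p = 0.00905, limma) and Klf5 (2.66, SE 0.80, adjusted p = 0.0115, limma) were higher in sperm, as were 35.5% of all genes, and 51% were called in all. Without sperm replicate 2 neither was called (adjusted p = 0.0798 for Klf4 and 0.0879 for Klf5, limma), after quantile normalization and on the 4 libraries alone Klf5 was not (0.191 and 0.0570, limma), and with the spread weighted by stage Klf4 was not (0.0501, limma). The sperm long-read pool held 1 transcript of the 10 genes, a 354-base piece of Klf4. Somatic and blood cell markers stood beside these values, with 9 of the 10 measured called higher in sperm than in oocyte. Lyz2 led them with a mean of 3835 TPM and Hba-a1 had 1803 and 4384 TPM, and their part in the Klf4 and Klf5 values was not tested. Of the Tfap2c level in sperm, 1.63 and 9.08 TPM belonged to a single-exon piece at the upstream start.

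Other genes of the network were set beside these 10 by transition. Of 30 further pluripotency network genes 21 were tested. From 1-cell to 2-cell 7 rose and 1 fell, where 25.3% of all genes rose and 4.57% fell. The median log2 change was 1.97 beside 0.84 over all genes. Dppa4 had the largest rise (5.60), from 1.35 and 0.598 to 45.9 and 186.8 TPM, and Tcl1 fell by 4.08 on the log2 scale. From 2-cell to 4-cell the co-receptor gene Tdgf1 rose by 5.35, from 0.642 and 1.95 to 91.0 and 86.4 TPM, and Gbx2, a homeobox gene, fell by 4.78. From 4-cell to 8-cell, where 3.75% of all genes were called, the single call was Tfcp2l1. Tfcp2l1 rose by 4.42, from 13.2 and 12.7 to 284 and 313 TPM. From oocyte to blastocyst 11 rose and 2 fell, where 29.8% of all genes rose and 16.6% fell. The median was 2.26 beside 0.75 over all genes and 2.28 over the 10. Dppa5a, an RNA-binding protein gene of the early embryo, had the largest rise there (9.54).

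Of 14 other Klf family genes 11 were tested. From 1-cell to 2-cell 5 rose, where 25.3% of all genes did. The median log2 change was 1.71 over the 11 and 0.84 over all genes. Klf9 rose most, by 6.69, from 0.934 and 0.332 to 285 and 94.9 TPM. From oocyte to blastocyst 4 rose and 2 fell, with Klf6 at 5.98 and Klf7 at -5.35 as the largest (of all genes 29.8% rose and 16.6% fell). In sperm against oocyte 5 were higher and 1 was lower, beside 35.5% and 15.5% of all genes. Klf6 led with 66.5 and 674 TPM in sperm.

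Markers of the outer and inner extraembryonic lineages were read beside the 10 genes in the blastocyst libraries. From 8-cell to blastocyst 6 of 11 trophectoderm markers rose (median log2 change 4.18, against -0.24 over all genes), with Dppa1 rising by 7.29, and 1 fell, Hand1. Of all genes 0.921% rose and 1.07% fell at that step. In the blastocyst the trophectoderm markers summed to 12981 TPM in replicate 1 and 41683 TPM in replicate 2. Beside this, Nanog, Sall4, Nr5a2, Klf4, Klf17 and Pou5f1 were lower in blastocyst replicate 2 than in replicate 1 (Pou5f1 by little, at 206 and 199.7 TPM), and Sox2, Klf5, Tfap2c and Esrrb were higher. Of 10 primitive endoderm markers 2 rose from 8-cell to blastocyst, led by Sox17 (4.54), beside 0.921% of all genes. These 10 summed to 705 TPM in blastocyst replicate 1 and 297 TPM in replicate 2. The part of cell composition in the blastocyst values was not tested.

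Across the 12 libraries from oocyte to blastocyst the 10 genes did not share 1 course. The closest pair was Klf4 and Nr5a2 (Pearson r = 0.843 of log2(TPM + 1)), followed by Klf5 and Nanog (0.798) and Klf4 and Klf5 (0.794). Klf17 ran against Sox2 (-0.868), Nanog (-0.743) and Pou5f1 (-0.658). These are descriptions over 12 libraries that are pairs of 6 stages and share their scaling. Among all genes tested, the courses most like that of Nanog were those of Fbp2 (r = 0.986), Ckmt1 (0.985) and Ndufs6 (0.983), and those most like that of Klf17 were Pcgf1 (0.956), Rbbp8 (0.950) and Zp3 (0.940). Pou5f1 was nearest to Tmem9 (0.945), Gata3 (0.935) and Chga (0.909), Nr5a2 to Zmiz1 (0.986), and Tfap2c to Strap (0.943). Klf5 was nearest to Tpm3-rs7 (0.992) and Sall4 to Gm43775 (0.915).

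In levels per length the leading gene of the 10 changed with the stage. Sall4 led in oocyte and 8-cell by its mean TPM, Klf17 in 1-cell and 4-cell, Klf4 in sperm and 2-cell, and Klf5 in blastocyst. At 2-cell this rests on replicate 2 (345 TPM, 253 of them in the 3′ piece), since in replicate 1 Klf4 had 38.4 TPM and Tfap2c led with 229.8. The 10 genes together summed to 61.5 and 129 TPM in sperm, 439 and 457 in oocyte, 414 and 401 in 1-cell, 515 and 749.9 in 2-cell, 969.8 and 959 in 4-cell, 767 and 761 in 8-cell, and 847 and 864 in blastocyst. The sum was highest at 4-cell, where Klf17 and Nr5a2 had their highest means.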

How the data were processed

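Smart-seq2 short-read libraries (14, 2 a stage) and 7 long-read pools were analysed. Per the methods, the authors aligned long reads to mm10 with GMAP after Iso-seq3 and merged stages with Cuffmerge. Salmon was run by the authors over the merged and over own-stage transcripts, and its TPM were used as deposited. The submitters' processing notes name GSNAP, STAR, Cufflinks and Salmon. TPM keeps no read counts, so no count test was run.

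Merged transcripts were assigned to GENCODE vM21 genes by exon overlap on the same strand (the methods name another release) and their TPM summed. The methods give no gene-level test on TPM. limma 3.58.1 in R 4.3.3 (lmFit, contrasts.fit, eBayes with trend) was run on log2(TPM + 1) of genes that reached 1 TPM in 2 or more libraries, over the 12 libraries from oocyte to blastocyst, or all 14 for sperm, with stage as the only term and Benjamini-Hochberg adjustment over all genes. An adjusted p under 0.05 was called. A change on this scale understates that of low genes. Isoform ratios used a pseudocount of 1 on both sides. Python 3.11.15 and pandas 2.3.3 were used for the rest. The tests were tried on simulated data.

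The members, the gene lists and the motifs were chosen with earlier results of these data known. Named genes are the 10 members, the largest called rise and fall of each list at a transition, and the 3 genes most correlated with a member. Amhr2, Hba-a1 and Lyz2 are named as markers. Alternatives were other pseudocounts, filters, scalings, spreads, assignments, a fit on 4 libraries, a replicate block, and each library left out, where a lone library is assumed to vary like the other stages. Titles number the 8-cell replicates opposite to other labels, and the title was followed.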

Additional observations from a re-analysis of the deposited data

How the results depend on the processing

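Over 36 results on the 10 genes, called or not, and 489 alternatives, 30 no longer passed the threshold, all of them of called results, and 32 passed it newly. Direction and side of the threshold were kept by 422, which take in results that were not called and stayed so. The other 5 changed sign. Those 5 were the change of Esrrb from 1-cell to 2-cell without 1-cell replicate 1 (0.10, and -2.76 at the other end of the values with 1 library left out), Sox2 in sperm against oocyte after quantile normalization (-0.21) and without sperm replicate 2 (-0.38 to 2.24 with 1 library left out), and the ratio of the downstream Tfap2c transcript from 1-cell to 2-cell without 1-cell replicate 1 (0.25) and without 2-cell replicate 2 (2.00, and -2.42 at the other end). The cause was not tested.

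Counts of called genes moved more. From oocyte to 1-cell 391 became 0 in the fit on 4 libraries. From 1-cell to 2-cell 4025 became 1873 with the spread weighted by stage and 0 on 4 libraries. From 2-cell to 4-cell 356 became 115 with a pseudocount of 0.1, 1528 after quantile normalization, 2 weighted and 0 on 4 libraries. As these fits on 4 libraries called no gene, they do not set Klf5, Klf4 (1-cell to 2-cell) or Nr5a2 (2-cell to 4-cell) apart from other genes. From 4-cell to 8-cell 505 became 4602 weighted and 3300 on 4 libraries. From 8-cell to blastocyst 268 became 166 with the pseudocount, 571 after quantile normalization, 455 weighted and 0 on 4 libraries. Sperm against oocyte went from 7341 to 4635 on 4 libraries. For isoform ratios, a pseudocount of 0.1 gave 3, 0 and 17 in place of 16 (oocyte to 1-cell), 20 (2-cell to 4-cell) and 26 (8-cell to blastocyst), no filter gave 42 in the last, and 4 libraries gave 0 in each transition but 4-cell to 8-cell (644 in place of 43), with 1675 from 1-cell to 2-cell otherwise.

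Leaving out 1 library gave 1 to 411 genes from oocyte to 1-cell, 1897 to 4910 from 1-cell to 2-cell, 1 to 1784 from 2-cell to 4-cell, 0 to 172 from 4-cell to 8-cell, 10 to 316 from 8-cell to blastocyst, 4619 to 5701 from oocyte to blastocyst and 6017 to 6233 in sperm. For isoform ratios the ranges were 0 to 22, 716 to 1803, 0 to 191, 0 to 2 and 0 to 41.

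Deviations of same-numbered libraries had a correlation over 0.1 in 4 of 15 stage pairs (-0.49 to 0.44). These values cannot tell whether same-numbered libraries share a batch, and those of 8-cell depend on its conflicting replicate numbers. With a replicate block 136 genes were called at 4-cell against 2-cell and 175 at blastocyst against 8-cell, and 7, 0, 23 and 6 isoform ratios in the transitions other than 1-cell to 2-cell. With the block and the 8-cell numbers exchanged, chosen after seeing the data, these were 127 and 164 genes and 10, 0, 25 and 6 ratios.

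A shared spread over stages understates the error of 2-cell values and overstates that of 4-cell values, so calls at 2-cell rest on replicates that agree least. With 2 libraries a stage and no read counts, differences of the size of the 2-cell spread could not be resolved, and long-read presence rests on 1 pool a stage.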

Other observations

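The TPM over the long-read transcripts of a library's own stage give the 10 genes a second level, for 70 pairs of gene and library with an own-stage transcript. In 54 of the 70 this level was within 2-fold of the merged one, and the ratio ran from 0.157 to 2.99. Of 8 genes with own-stage values in at least 2 stages, 6 had their highest stage unchanged (Pou5f1, Nanog, Klf5, Klf17, Tfap2c and Nr5a2). Among the stages with such values, the highest stage of Klf4 moved from 2-cell to sperm and that of Sall4 from 8-cell to 4-cell.

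Long-read starts of the 10 genes lay within 300 bases of an annotated start for 42 of 66 stage transcripts and 10 of 16 merged transcripts, and within 100 bases for 41 and 10.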
